A study of Homo sapiens with 6 samples.

Results

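The 10 genes described here encode Eph receptors (EPHA1, EPHA2, EPHA4, EPHB2, EPHB3 and EPHB4) and their ligands, the ephrins (EFNA1, EFNA4, EFNB1 and EFNB2). They were taken by gene symbol from a deposited RNA-seq table of 61806 genes, and each symbol matched 1 row. The libraries came from HCT116, an established line of human colorectal cancer cells. By their labels, 3 libraries were of control cells of wildtype genotype (si-NC) and 3 of STRIP2 knockdown cells (si-STRIP2), named si-NC 1 to 3 and si-STRIP2 1 to 3 below. STRIP2 belongs to STRIPAK, an assembly of a phosphatase with kinases, and the prefix si stands for a short interfering RNA, a duplex that directs the cutting of a matching transcript. The sequence of the duplex, its dose and the time after its addition are not given in the sources used here. Whether the 3 libraries of a group are from different cultures is not in the labels, so p-values measure the spread between these libraries, which may be technical.

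Eph receptors are the largest family of receptor tyrosine kinases, and their ligands stay attached to the surface of a neighbouring cell. A-type ephrins hang on a lipid anchor, while B-type ephrins cross the membrane and have a cytoplasmic tail. Contact between cells therefore signals in both directions, forward through the receptor's kinase and in reverse through the ephrin, and commonly ends in repulsion or in sorting of cells into compartments. In the intestinal crypt, EPHB2 and EPHB3 are transcribed under Wnt and TCF control and ephrin-B ligands are found higher on the crypt axis, an arrangement that keeps proliferating and differentiating cells apart. EPHA2, with EFNA1 as a preferred ligand, is common in carcinoma cells, and EPHB4 binds EFNB2 with strong preference.

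Total counts ranged from 17184963 to 21721218 per library, and mitochondrial genes took 4.88% to 8.88% of them. STRIP2, the targeted gene, had 3.19, 3.77 and 3.81 FPKM (fragments per kilobase of exon, scaled to the library's total count) in si-NC and 2.71, 2.53 and 2.58 in si-STRIP2 (a log2 fold change of -0.46 with SE (standard error) 0.083, adjusted p = 1.62e-05 by edgeR). Of 8 markers of colorectal epithelium, 5 were above 1 FPKM in every library, EPCAM among them, while VIL1, LGALS4 and CEACAM5 were at 0.13 FPKM or less. The 8 summed to 555 to 577 FPKM in the controls and 508 to 522 after knockdown. Markers of immune cells summed to at most 0.28 FPKM and those of endothelial cells to at most 0.02. Those of fibroblasts summed to 2.17 to 2.57 FPKM in si-NC and 1.92 to 2.14 in si-STRIP2, nearly all of it COL1A1, with DCN at 0. The part of these differences between groups in the results below was not tested.

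In si-STRIP2 cells, 6 of the 10 genes fell and 2 rose. EPHA2, EPHA4, EPHB2, EFNA1, EFNB1 and EFNB2 were lower and EPHB4 and EFNA4 higher at an adjusted p under 0.05, while EPHA1 and EPHB3 were not called. Of all 15687 genes tested, 27.0% were called lower and 27.8% higher, so that a call alone was common in these libraries. All changes of the 10 genes were small. Their log2 fold changes ran from -0.54 to 0.37 with a median of -0.26, against a median of 0.01 for all genes tested. Without si-NC 1 the median of the 10 genes was -0.16. None reached 1.5-fold with an adjusted p under 0.05 by edgeR (0 of 10 in either direction, and also 0 of 10 at an unadjusted p under 0.05), a limit that 8.1% of all genes passed as lower and 6.35% as higher. All 10 passed the filter on low counts. Either way, 54.8% of all genes tested were called, against 8 of the 10. In bulk libraries, fewer cells holding a transcript and less transcript per cell cannot be told apart.

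**Figure D1:**
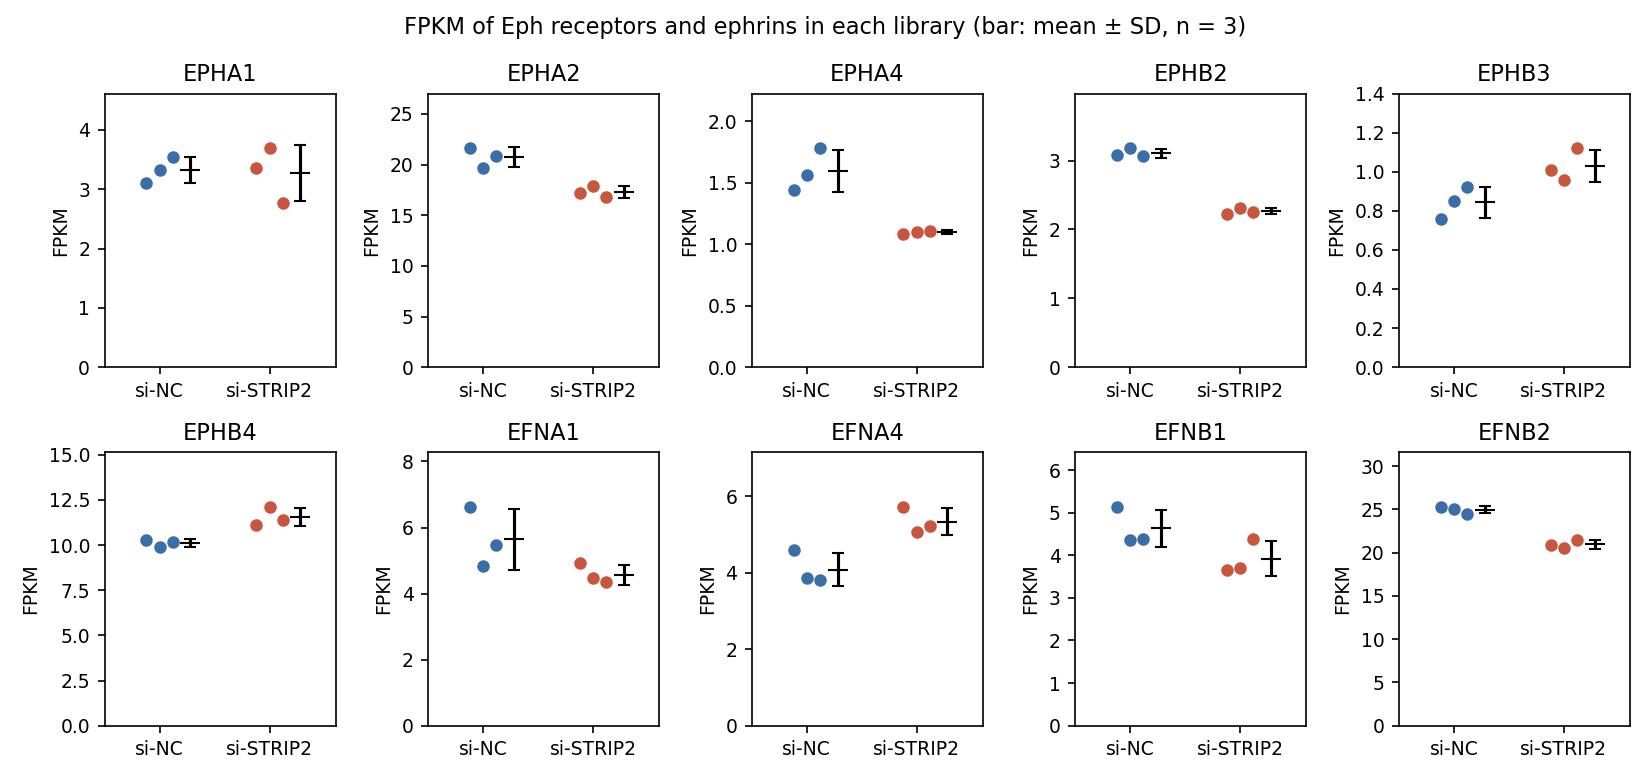
FPKM of each gene (vertical axis, from 0) in the 3 si-NC and 3 si-STRIP2 libraries (points), with the mean and SD of each group (black bar). The groups do not overlap for EPHA2, EPHA4, EPHB2 and EFNB2, which were lower, and for EPHB3, EPHB4 and EFNA4, which were higher, and they overlap for EPHA1, EFNA1 and EFNB1.

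Among the EphA receptors, EPHA2 and EPHA4 fell. EPHA2 (ENSG00000142627, chromosome 1, 16124337 to 16156069, minus strand) had 21.61, 19.68 and 20.85 FPKM in si-NC 1 to 3 and 17.24, 17.89 and 16.76 in si-STRIP2 1 to 3. Every si-STRIP2 library was below every si-NC library, and 83.5% of the control level remained (log2 fold change -0.27 with SE 0.047, adjusted p = 1.25e-05 by edgeR). EPHA2 made up most of the EphA signal, 80.8% ± 1.59 of the summed EphA FPKM in the controls and 79.9% ± 1.2 after knockdown (SD, n = 3). EPHA4 (ENSG00000116106, chromosome 2, 221418027 to 221574202, minus strand), a receptor that binds ephrins of both types, was far lower in level. It had 1.44, 1.56 and 1.78 FPKM in si-NC and 1.08, 1.10 and 1.11 in si-STRIP2. The groups did not overlap, and the fall was the largest in size among the 10 genes (68.8% of the control level, log2 fold change -0.54 with SE 0.10, adjusted p = 4.61e-05 by edgeR). The si-STRIP2 libraries of EPHA4 agreed more closely than counting alone would give: their coefficient of variation was 1.39%, where counts of 144 to 153 a library carry a counting error of 8.24%.

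EPHA1 (ENSG00000146904, chromosome 7, 143390289 to 143408856, minus strand), the founding member of the family, showed no detectable difference. It had 3.11, 3.33 and 3.54 FPKM in si-NC and 3.36, 3.69 and 2.77 in si-STRIP2, so that the si-STRIP2 libraries lay on both sides of the controls. The log2 fold change was -0.02 with a 95% interval from -0.21 to 0.17 (edgeR adjusted p = 0.855). EPHA1 overlaps ZYX on the opposite strand, which held 413% as many counts and shares 82 exonic bases with it in GENCODE 29. The libraries are directional, but whether counting used the strand is not given in the sources used here. Reads in the shared bases may thus have been counted for either gene or for neither, which was not tested.

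The EphB receptors moved in different directions. EPHB2 (ENSG00000133216, chromosome 1, 22710839 to 22921500, plus strand) had 3.08, 3.18 and 3.06 FPKM in si-NC and 2.23, 2.31 and 2.25 in si-STRIP2. The groups were narrow and well apart (72.8% of the control level, log2 fold change -0.46 with SE 0.060, adjusted p = 5.14e-08 by edgeR). EPHB4 (ENSG00000196411, chromosome 7, 100802565 to 100827523, minus strand) had 10.30, 9.89 and 10.19 FPKM in si-NC and 11.13, 12.12 and 11.40 in si-STRIP2. All si-STRIP2 libraries were above all si-NC libraries, by a small margin (114% of the control level, log2 fold change 0.19 with SE 0.047, adjusted p = 0.00125 by edgeR). EPHB4 overlaps SLC12A9 on the opposite strand by 69 exonic bases in GENCODE 29. SLC12A9 held 16.4% as many counts and rose by a log2 fold change of 0.47 (SE 0.096, adjusted p = 7.98e-05 by edgeR), and its part in the value of EPHB4 was not tested.

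EPHB3 (ENSG00000182580, chromosome 3, 184561785 to 184582408, plus strand), the partner of EPHB2 in the crypt, was the lowest of the 10 genes. It had 0.76, 0.85 and 0.92 FPKM in si-NC and 1.01, 0.96 and 1.12 in si-STRIP2, from 67 to 87 counts a library. The groups did not overlap, yet the difference did not pass the test (log2 fold change 0.28, 95% interval -0.03 to 0.59, edgeR adjusted p = 0.114). Groups did not overlap in the higher direction for 30.0% of all genes tested and in the lower direction for 28.7%. The ratio of EPHB2 to EPHB3 within a library was 4.05, 3.74 and 3.33 in si-NC and 2.21, 2.41 and 2.01 in si-STRIP2. EPHB2 thus remained the higher of the pair at a smaller excess. Ratios and shares between genes depend on the exonic bases listed, 12516 for EPHB2 and 4530 for EPHB3. In si-NC 1, EPHB2 had 836 counts and EPHB3 75. The ratio of EPHB4 to EPHB2 went the other way, from 3.26 ± 0.131 to 5.10 ± 0.131 (SD, n = 3). As shares of the summed EphB FPKM, EPHB4 went from 71.9% ± 0.897 to 77.8% ± 0.839 and EPHB2 from 22.1% ± 0.674 to 15.2% ± 0.255.

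The ephrin-A genes EFNA1 and EFNA4 moved in opposite directions. EFNA1 (ENSG00000169242, chromosome 1, 155127876 to 155134899, plus strand) had 6.63, 4.83 and 5.46 FPKM in si-NC and 4.92, 4.46 and 4.34 in si-STRIP2. The groups overlapped, since si-STRIP2 1 was above si-NC 2, and si-NC 1 was the highest (81.1% of the control level, log2 fold change -0.32 with SE 0.11, adjusted p = 0.0140 by edgeR). Without si-NC 1 the log2 fold change was -0.17 and the call was lost (edgeR adjusted p = 0.245), as it was by limma on log2(FPKM + 1) and log2(FPKM + 0.1) (adjusted p = 0.0572 and 0.0502), and over all 16 alternatives the adjusted p ran from 0.00114 to 0.338. EFNA4 (ENSG00000243364, chromosome 1, 155063737 to 155069553, plus strand) had 4.58, 3.86 and 3.80 FPKM in si-NC and 5.72, 5.05 and 5.22 in si-STRIP2. Its groups did not overlap (131% of the control level, log2 fold change 0.37 with SE 0.13, adjusted p = 0.0167 by edgeR). With 82 to 135 counts a library, the call of EFNA4 was lost without si-NC 2, si-NC 3 or si-STRIP2 1 (edgeR adjusted p = 0.0629, 0.0558 and 0.0685) and under DESeq2 (adjusted p = 0.0640), and over the 16 alternatives the adjusted p ran from 0.00505 to 0.224. The ratio of EFNA4 to EFNA1 within a library was 0.691, 0.799 and 0.696 in si-NC and 1.16, 1.13 and 1.2 in si-STRIP2. By FPKM, EFNA4 was thus below EFNA1 in every control library and above it in every si-STRIP2 library. That order depends on the exonic bases listed, 1257 for EFNA4 and 2165 for EFNA1. By counts, EFNA4 was below EFNA1 in every library.

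EFNA4 and EFNA1 lie within a stretch of 71.2 kb on chromosome 1, from the start of EFNA4 to the end of EFNA1, with EFNA3 between them on the same strand. EFNA3 (ENSG00000143590, 155078837 to 155087538), which starts 9283 bases after the end of EFNA4, rose from 3.72, 2.97 and 3.26 FPKM in si-NC to 5.04, 4.47 and 4.42 in si-STRIP2 (log2 fold change 0.47 with SE 0.12, adjusted p = 0.000960 by edgeR). The neighbouring EFNA3 and EFNA4 were thus both higher, and EFNA1, 40.3 kb further on, was lower. The neighbourhood was looked at after these values were seen. Within 50 kb of either end, 12 genes were tested, of which 4 were called higher (EFNA4, EFNA3, DPM3 and KRTCAP2) and 3 lower (ZBTB7B, EFNA1 and SLC50A1). Such counts stand near the shares of all genes tested, 27.8% called higher and 27.0% lower. ADAM15, which ends just before EFNA4 and encodes a membrane protease, had 8.2, 7.74 and 8.39 FPKM in si-NC and 8.2, 9.28 and 7.92 in si-STRIP2, and was not called (edgeR adjusted p = 0.391). An annotated gene that runs through EFNA4 and EFNA3, ENSG00000251246, shares 189 and 853 exonic bases with them and held 2 counts in all.

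Both ephrin-B genes fell by nearly the same amount. EFNB2 (ENSG00000125266, chromosome 13, 106489745 to 106535662, minus strand), the preferred ligand of EPHB4, was the highest of the 10 genes, with 25.31, 25.03 and 24.51 FPKM in si-NC and 20.85, 20.50 and 21.51 in si-STRIP2. The groups did not overlap (84.0% of the control level, log2 fold change -0.26 with SE 0.042, adjusted p = 3.45e-06 by edgeR). EFNB1 (ENSG00000090776, chromosome X, 68829021 to 68842160, plus strand) had 5.14, 4.37 and 4.39 FPKM in si-NC and 3.66, 3.71 and 4.39 in si-STRIP2. Here si-STRIP2 3 reached the level of the lower controls, and the groups overlapped (84.6% of the control level, log2 fold change -0.25 with SE 0.096, adjusted p = 0.0240 by edgeR). The call of EFNB1 was lost without si-NC 1 (log2 fold change -0.16, edgeR adjusted p = 0.218), si-STRIP2 1 (-0.20, 0.127) or si-STRIP2 2 (-0.22, 0.0949), under DESeq2 (adjusted p = 0.0682), and by the same limma fits (adjusted p = 0.0668 and 0.0596), and over the 16 alternatives the adjusted p ran from 0.00527 to 0.586. Apart from ZYX and SLC12A9, genes that overlap a member held at most 1.89% as many counts. Among them, ENSG00000284966, on the opposite strand, shares 1313 exonic bases with EFNB2 in GENCODE 29 and held 84 counts in all. How reads in shared bases were assigned was not examined, and they may have been counted for neither gene. The part of such overlaps in the values of the members was not tested.

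**Figure D2:**
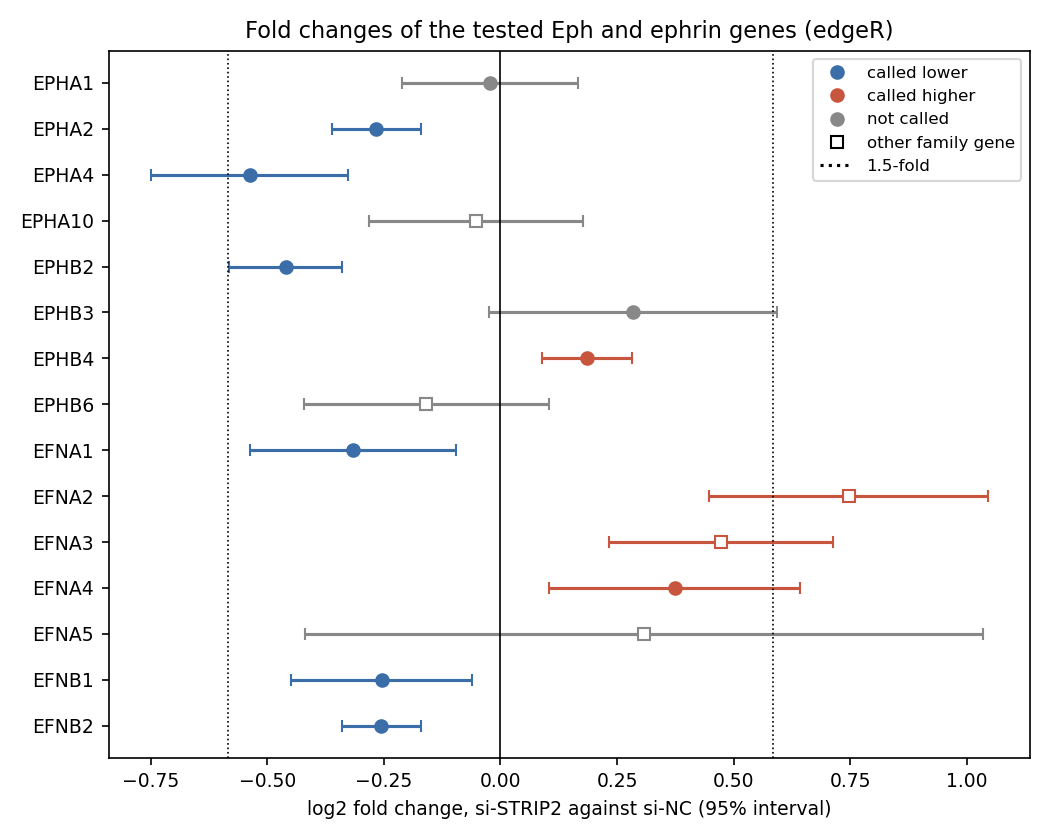
Log2 fold change of si-STRIP2 against si-NC by edgeR (horizontal axis) with its 95% interval for the 10 genes (filled circles) and the other 5 tested genes of the families (open squares), coloured by call, with dotted lines at 1.5-fold. EPHA4 at -0.54 and EPHB2 at -0.46 are the lowest, and EFNA2 at 0.75 is the only point beyond a dotted line.

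Promoters are shown for 5 genes that passed the test, 3 that fell (EPHA2, EPHB2, EFNB2) and 2 that rose (EPHB4, EFNA4), to set genes that moved together beside genes that moved apart. Each is the 210 bases before the RefSeq start site (GRCh38.p14), read 5′ to 3′ on the gene's strand. Capitals mark every match, on either strand, to GGGCGG (the SP1 box, CCGCCC on the other strand) or CTTTGA (the TCF/LEF core).
EPHA2 (chr1:16156070-16156279, minus strand): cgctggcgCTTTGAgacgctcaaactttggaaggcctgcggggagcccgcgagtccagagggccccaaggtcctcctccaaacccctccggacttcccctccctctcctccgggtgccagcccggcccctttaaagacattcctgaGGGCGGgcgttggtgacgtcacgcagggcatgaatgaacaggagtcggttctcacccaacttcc
EPHB2 (chr1:22710628-22710837, plus strand): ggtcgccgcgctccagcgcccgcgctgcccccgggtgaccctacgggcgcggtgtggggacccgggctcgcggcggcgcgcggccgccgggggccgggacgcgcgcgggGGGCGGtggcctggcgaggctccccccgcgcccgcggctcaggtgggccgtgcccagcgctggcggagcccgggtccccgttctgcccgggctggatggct
EFNB2 (chr13:106535663-106535872, minus strand): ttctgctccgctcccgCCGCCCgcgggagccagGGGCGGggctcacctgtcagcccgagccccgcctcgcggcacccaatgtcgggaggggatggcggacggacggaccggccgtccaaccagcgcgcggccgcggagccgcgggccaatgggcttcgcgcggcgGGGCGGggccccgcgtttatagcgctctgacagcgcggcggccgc
EPHB4 (chr7:100827524-100827733, minus strand): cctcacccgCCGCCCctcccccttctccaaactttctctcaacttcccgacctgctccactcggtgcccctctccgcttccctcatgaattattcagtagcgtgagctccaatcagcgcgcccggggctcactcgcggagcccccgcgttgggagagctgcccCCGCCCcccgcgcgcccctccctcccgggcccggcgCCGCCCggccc
EFNA4 (chr1:155063530-155063739, plus strand): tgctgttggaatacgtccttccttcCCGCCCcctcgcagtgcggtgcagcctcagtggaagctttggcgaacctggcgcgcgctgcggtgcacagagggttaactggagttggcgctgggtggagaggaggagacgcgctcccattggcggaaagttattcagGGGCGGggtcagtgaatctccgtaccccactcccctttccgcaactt

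The RefSeq promoter table held all 10 genes, and windows of 300 bases (250 before to 50 after the start) were searched, using the first window listed for genes with several. The SP1 box was in the window of all 10 genes, those that fell, rose or were not called, and in 44.9% of 35116 promoters. CTTTGA was in the window of EPHA2, 202 bases before the start, and of no other of the 10, EPHB2 and EPHB3 included, against 12.9% of all promoters. Neither the AP-1 word TGANTCA nor the E-box CACGTG occurred in the 10 windows, against 7.71% and 7.26% of all promoters. In these windows no match to a word overlapped a match to a different word. For EFNA1, the SP1 box matches at -61 and -56 from the start overlapped each other. GC content ran from 43.0% for EPHA4 (74.3% in its second listed window) to 83.0% for EPHB2. EPHA4 and EFNA4 were below the median of all promoters, 58.7%, and the others above it. These letters describe the windows and say nothing of binding.

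Summed by class, EphA and ephrin-B transcripts were lower in si-STRIP2 cells and EphB transcripts slightly higher. These sums over genes chosen with the results known are a description without a test. The EphA receptors summed to 26.16, 24.57 and 26.17 FPKM in si-NC and 21.68, 22.68 and 20.64 in si-STRIP2, and the ephrin-B ligands to 30.45, 29.40 and 28.90 and to 24.51, 24.21 and 25.90. In both classes every si-STRIP2 library was lower. The EphB receptors summed to 14.1 ± 0.137 FPKM in the controls and 14.8 ± 0.514 after knockdown (SD, n = 3), since the higher EPHB4 outweighed the lower EPHB2. The ephrin-A pair summed to 9.72 ± 1.32 and 9.90 ± 0.639 FPKM with overlapping groups, as its members went opposite ways.

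**Figure D3:**
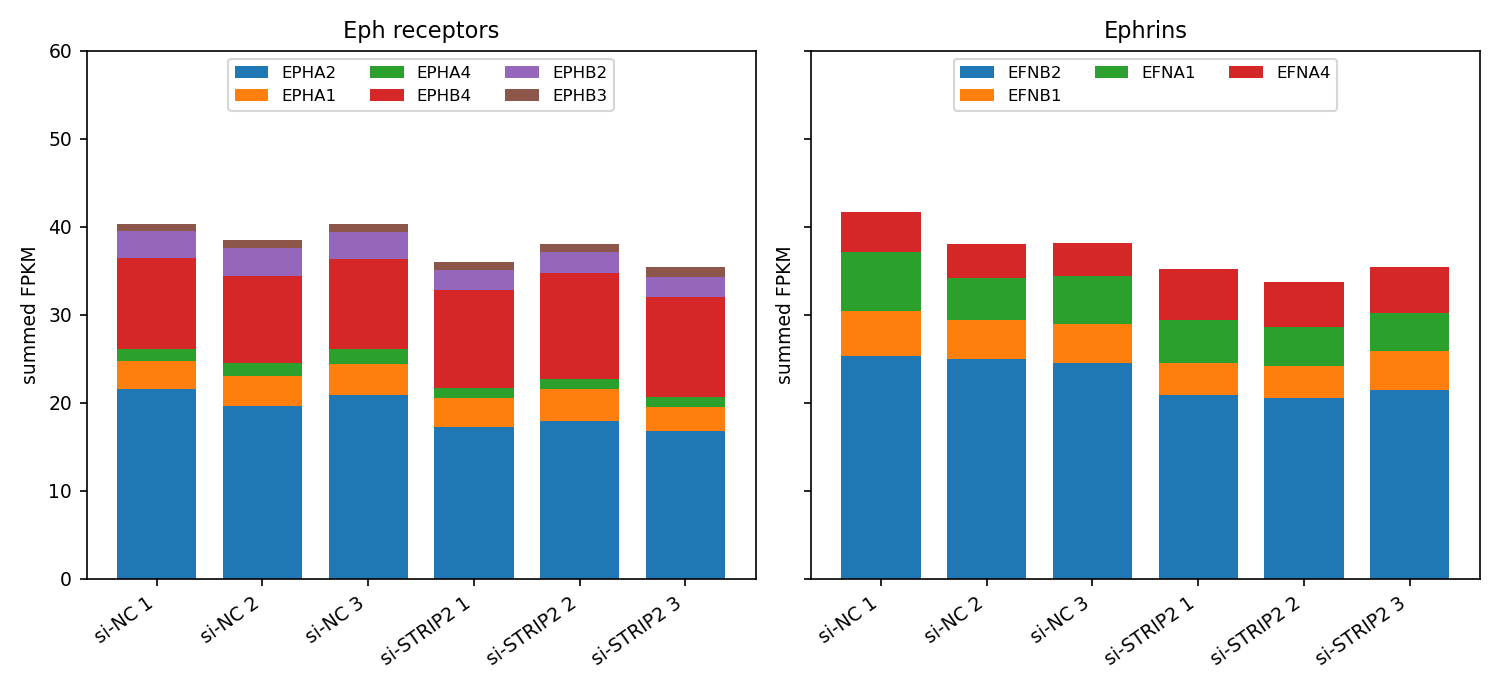
Summed FPKM (vertical axis, from 0) of the Eph receptors (left) and ephrins (right) in each library, stacked by gene. EPHA2 and EFNB2 form the largest blocks, and the receptor total is 38.49 to 40.34 in si-NC and 35.41 to 38.07 in si-STRIP2.

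FPKM divides by the exonic bases listed for a gene, from 1257 for EFNA4 to 12516 for EPHB2. Orders, shares and ratios between genes therefore depend on these lengths. By FPKM, the order of levels was EFNB2, EPHA2, EPHB4 at the top in both groups, with no overlap between neighbours. Below them in si-NC came EFNA1, EFNB1 and EFNA4, of which neighbours overlapped, then EPHA1 and EPHB2, which overlapped each other, and last EPHA4 and EPHB3, which did not. In si-STRIP2, EFNA4 stood next, above EFNA1, EFNB1 and EPHA1, of which neighbours overlapped, and EPHA4 (1.08 to 1.11 FPKM) and EPHB3 (0.96 to 1.12) overlapped. Within receptor and ligand pairs, EFNB2 to EPHB4 went from 2.46 ± 0.0631 to 1.82 ± 0.109 (SD, n = 3), without overlap. EPHA2 to EFNA1 stood at 3.72 ± 0.417 in the controls and 3.79 ± 0.261 after knockdown, with overlapping libraries, since both genes were lower. EPHA2 to EPHB4, the main receptors of each class, went from 2.05 ± 0.0541 to 1.5 ± 0.0439.

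Of the other 12 genes of the families, 5 had enough counts to be tested, and 2 of these, both ephrin-A genes, rose. EFNA2 (ENSG00000099617, chromosome 19) had 1.41, 1.84 and 1.39 FPKM in si-NC and 2.42, 2.86 and 2.49 in si-STRIP2. Its groups did not overlap, and its log2 fold change of 0.75 (SE 0.15, adjusted p = 5.73e-05 by edgeR) was larger in size than that of any of the 10 members. With EFNA3 above, 3 of the 5 ephrin-A genes were called higher and EFNA1 lower, where 27.8% of all genes tested were called higher and 27.0% lower. The calls of EFNA4 and EFNA1 were lost in 5 and 4 of the 16 alternatives. The fifth, EFNA5, was near the limit of detection at 9 to 16 counts a library (log2 fold change 0.31, 95% interval -0.42 to 1.04, edgeR adjusted p = 0.482). The pseudokinase receptors EPHA10 and EPHB6, whose kinase domains lack activity, were not called, with log2 fold changes of -0.05 (95% interval -0.28 to 0.18) and -0.16 (-0.42 to 0.10) and edgeR adjusted p-values of 0.715 and 0.306. EPHA3 and EPHA5 had 0 counts in all libraries, where 3 counts a library is the limit that a count of 0 allows. EPHA6, EPHA7, EPHA8, EPHB1 and EFNB3 had at most 6 counts in any library.

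Genes that act with the receptors were taken from 6 lists with 68 genes, of which 58 were tested, 25 were called lower and 9 higher. These counts, and those of each list below, stand beside 27.0% of all genes tested that were called lower and 27.8% higher. Among the adaptors and phosphatases that bind activated receptors, 9 of 15 fell and 3 rose, with a median log2 fold change of -0.21. ANKS1A, an adaptor that binds Eph receptors through its phosphotyrosine-binding domain, fell from 3.30 ± 0.164 to 1.87 ± 0.153 FPKM (SD, n = 3, log2 fold change -0.82 with SE 0.073, adjusted p = 1.37e-11 by edgeR). GRB7, an SH2 adaptor, rose from 4.01 ± 0.0929 to 6.53 ± 0.280 FPKM (SD, n = 3, log2 fold change 0.70 with SE 0.078, adjusted p = 2.36e-09 by edgeR). Of the Src and Abl family and focal adhesion kinases, 3 of 7 fell and 0 rose by edgeR, with a median of -0.10, which was -0.04 without si-NC 2. The largest fall there was that of FYN, a Src family kinase, from 5.76 ± 0.249 to 3.36 ± 0.111 FPKM (log2 fold change -0.78 with SE 0.061, adjusted p = 6.95e-13 by edgeR).

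Among the proteases that act on ephrins and Eph receptors, ADAM10, the main sheddase, fell from 18.9 ± 1.22 to 14.7 ± 0.297 FPKM (SD, n = 3, log2 fold change -0.37 with SE 0.042, adjusted p = 4.34e-09 by edgeR). MMP14, a membrane metalloprotease, also fell (log2 fold change -0.30, edgeR adjusted p = 0.00133), and NCSTN, PSENEN and APH1A were not called (edgeR adjusted p = 0.662, 0.416 and 0.157). These last 4 were named after their values were seen. A gene that overlaps NCSTN, COPA, held 299.4% as many counts, and its part in the value of NCSTN was not tested. Of the partners of ephrin-B tails, 3 of 7 fell and 0 rose by edgeR, with a median of -0.01 that ranged from -0.09 to 0.01 with 1 library left out, led by STAT3 (log2 fold change -0.24) and the PDZ protein SDCBP (-0.22), with edgeR adjusted p-values of 1.77e-05 and 2.67e-05.

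Since EPHB2 and EPHB3 are Wnt targets in the crypt, 10 other crypt Wnt target genes were listed, and 6 of them were tested. Of these, 3 fell and 1 rose, with a median log2 fold change of -0.20. That median was 0.03 with no filter on low counts, where LGR5 (0 to 3 counts a library) and SP5 (3 to 6) also entered. It was -0.29 with a filter of at least 1 FPKM in 3 libraries, so its sign depended on the filter. RNF43, a ubiquitin ligase that removes Wnt receptors, fell from 6.09 ± 0.183 to 3.71 ± 0.357 FPKM (SD, n = 3, log2 fold change -0.72 with SE 0.067, adjusted p = 4.39e-11 by edgeR). The gene that rose was SOX9, a transcription factor of crypt base cells, from 26.0 ± 0.390 to 34.3 ± 0.0300 FPKM (SD, n = 3, log2 fold change 0.40 with SE 0.040, adjusted p = 2.70e-10 by edgeR), named here after its value was seen. Its coefficient of variation in si-STRIP2, 0.0874%, was below the counting error of 2.04%. Genes that overlap RNF43 held 8.26% as many counts. Those that overlap TCF7, a listed gene that was tested and not called, held 161.8% as many. LGR5, ASCL2, SP5 and LEF1 did not pass the filter on low counts.

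**Figure D4:**
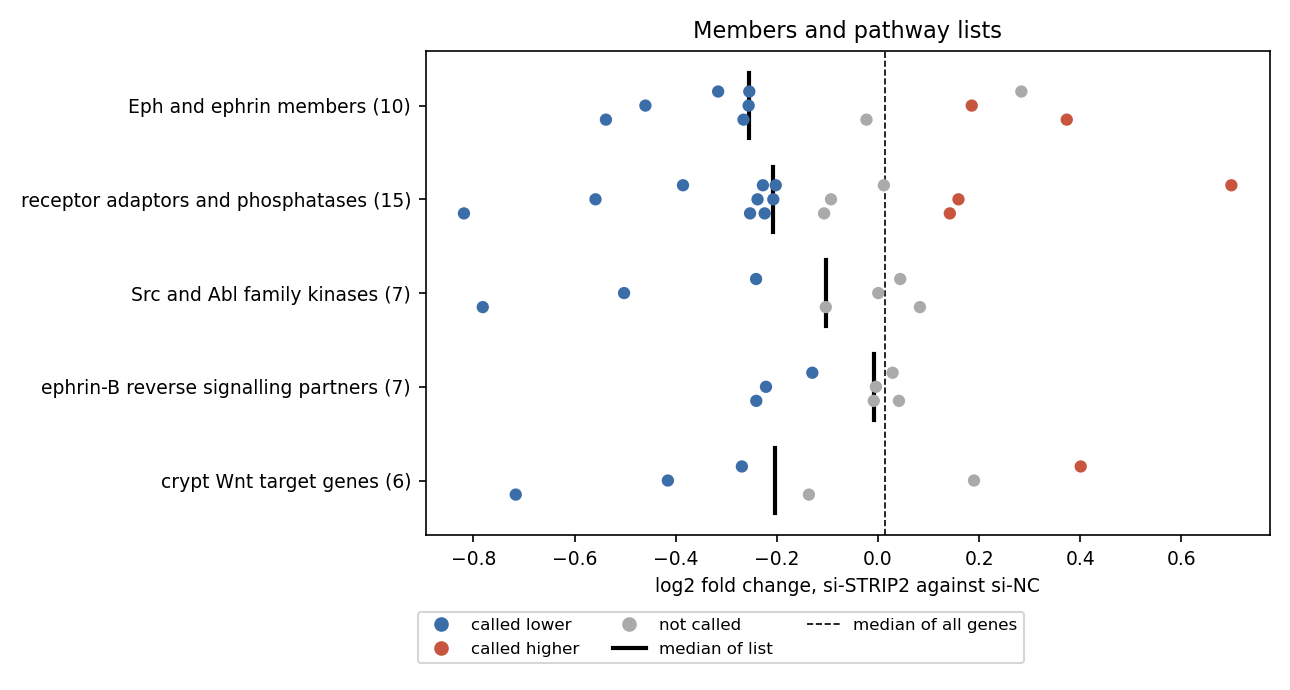
Log2 fold change of si-STRIP2 against si-NC (horizontal axis) for each tested gene of the 10 members and of 4 pathway lists, coloured by call, with the median of each list (black bar) and of all genes tested (dashed line at 0.01). The medians lie between -0.26 for the members and -0.01 for the partners of ephrin-B tails, and GRB7 at 0.70 is the highest point.

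The 10 genes did not share the same firmness. EPHA4 and EPHB2 were called under every one of the 16 alternatives, with log2 fold changes from -0.61 to -0.30 and from -0.48 to -0.33, and they were the only members to pass a test against a 1.2-fold change (edgeR glmTreat adjusted p = 0.00809 and 0.00162). That test called 12.4% of all genes lower and 11.3% higher. EPHA2, EFNB2 and EPHB4 kept their calls except under that test (adjusted p = 0.517, 0.623 and 1).

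**Figure D5:**
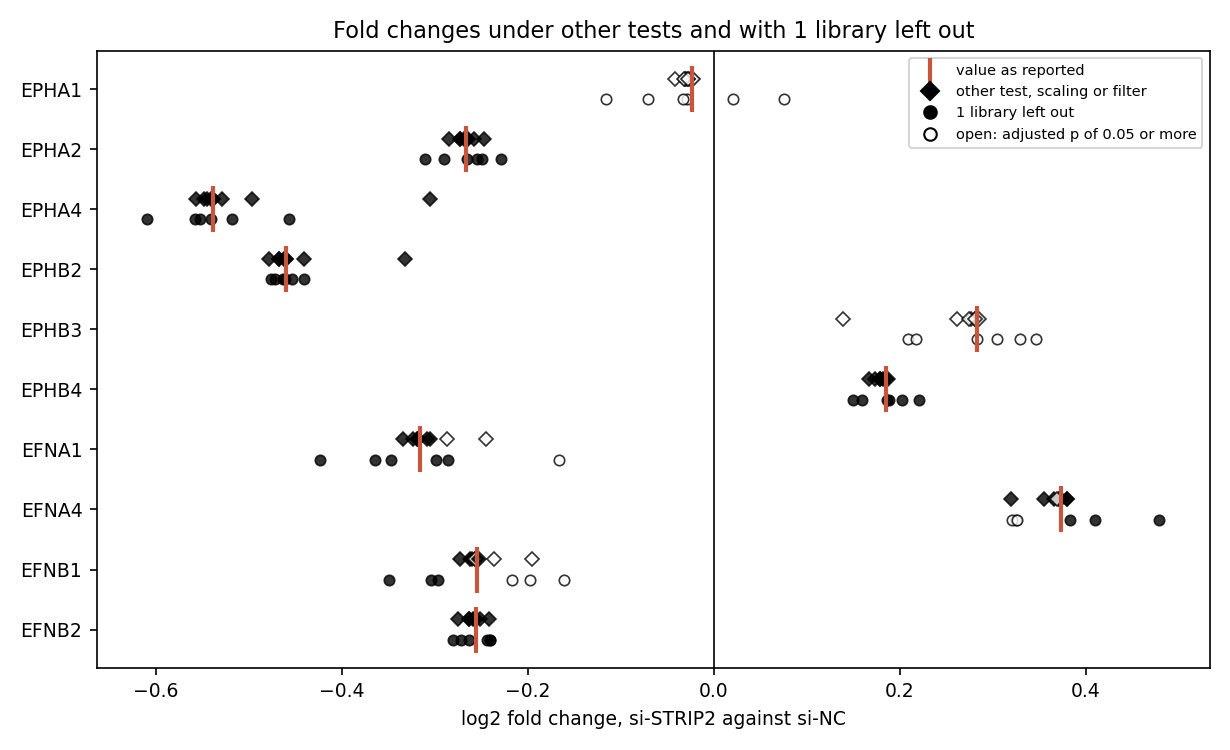
Log2 fold change of si-STRIP2 against si-NC (horizontal axis) for each of the 10 genes as reported (red bar), under other tests, scalings and filters (diamonds) and with 1 library left out (circles), open where the adjusted p was 0.05 or more. The test against 1.2-fold is not drawn, as it leaves the fold change as it is. EFNA1, EFNA4 and EFNB1 have filled and open points, and EPHA1 lies on both sides of 0.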

How the data were processed

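Poly(A) RNA of 6 HCT116 libraries was sequenced, 3 si-NC and 3 si-STRIP2, per the labels. The authors deposited 1 table of raw counts and FPKM per Ensembl gene, per the file headers. The submitters' processing notes list HISAT2 2.2.1, HTSeq 0.6.1 and GRCh38.p13. The annotation release and the use of strand are not given in the sources used here. The deposited FPKM differed from count, exonic size and column total by at most 0.005, their rounding. Gene coordinates are those of the deposited table, and shared exons and transcript models are from GENCODE 29.

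Counts were tested in R 4.3.3 with edgeR 4.0.16: filterByExpr (minimum count 10, 15687 genes holding 99.8% of counts), TMM scaling, a two-sided quasi-likelihood F test with group as the only term, and Benjamini-Hochberg adjustment over all genes tested, called under 0.05. Standard errors are the log2 fold change over the square root of F, and intervals are 95%. Levels are FPKM. The script was tested on simulated data. DESeq2 1.42.0 and limma 3.58.1 gave alternatives. A count of 0 in a library allows an expected count of up to 3.

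The members and lists were chosen with earlier results of these data known. All members and all other tested family genes are named. For each list, called genes of at least 1.5-fold are named, or, where there are none, the 2 with the smallest adjusted p. Some results that these rules would name, for pathway genes, are not reported here.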

Additional observations from a re-analysis of the deposited data

How the results depend on the processing

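Gene results were recomputed under 16 other choices of test, scaling, filter or libraries, 6 of which left out a library. The number of members called lower was 6 and was 2 in the test against 1.2-fold, 4 by limma on log2(FPKM + 1) or log2(FPKM + 0.1) (without EFNA1 and EFNB1) and 5 under DESeq2 (without EFNB1). It ranged from 4 to 6 with a library left out. The number called higher was 2, became 1 under DESeq2 and 0 in the test against 1.2-fold (edgeR glmTreat), and ranged from 1 to 2 with a library left out. The number lower by at least 1.5-fold was 0, and ranged from 0 to 1 with a library left out, where EPHA4 passed without si-NC 1 (-0.61). Among pathway genes, the test against 1.2-fold called 11 lower and 3 higher, in place of 25 and 9, by construction. EPHA1, not called, had log2 fold changes from -0.12 to 0.076 with a library left out, above 0 without si-NC 3 (0.021) or si-STRIP2 3 (0.076). The ephrin-A total in si-STRIP2, 101.9% of si-NC, ranged from 96.8% to 110.3% with a library left out, the latter without si-NC 1. The cause was not tested for the changes with a library left out or under DESeq2.

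The labels give both groups the numbers 1 to 3. The deviations of same-numbered libraries from their group means correlated at -0.09, -0.01 and -0.07, and no library correlated best with its own number. With the replicate block, 6 members were called lower and 2 higher, and 8293 genes were called in place of 8599.

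Depth limits genes of few counts, such as EFNA5, EPHB3 and the untested family genes. The interval of EPHB3 holds no change and a 1.5-fold rise.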
